A study of Mus musculus with 9 samples.

Results

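AP-1 and immediate early genes were followed in cultured mouse embryonic fibroblasts (MEFs) as a set of 10 genes, *Fos*, *Fosb*, *Fosl1*, *Fosl2*, *Jun*, *Junb*, *Jund*, *Egr1*, *Ier2* and *Atf3*. They were taken by gene name from a table of 15184 genes measured by RNA-Seq of polyA+ RNA, and all 10 were listed in it. The table held 9 libraries. Of these, 3 were labelled Empty vector (called empty vector here), and 6 carried the genotype label Hnrnpk_SAM and belonged to the lines SAM1 and SAM2 (3 libraries each). In the synergistic activation mediator (SAM) system, an inactive Cas9 carried to a gene by a guide RNA recruits transcriptional activators, here to *Hnrnpk*. Per the study's methods, WT MEFs received lentiMPHv2 and lentiSAMv2 by lentivirus and were selected with blasticidin and hygromycin, the control lentiSAMv2 carried a nontargeting guide, and every culture was kept in medium with fetal bovine serum. The study prints the same sequence for the nontargeting guide as for an *Hnrnpk* guide. No further treatment is labelled. Mouse strain, the number of embryos behind each line and whether a line was clonal are not given in the sources used here, and neither is the guide each line carried. Whether the libraries of a group were separate cultures is not stated either, so p-values measure the spread between these libraries, which may be technical.

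AP-1 is a dimer of basic leucine zipper (bZIP) proteins. A Fos family protein (FOS, FOSB, FOSL1 or FOSL2) needs a Jun family partner (JUN, JUNB or JUND) to bind DNA, whereas Jun proteins also pair with each other, and ATF3 is a related bZIP protein that can pair with Jun proteins and often represses. *Egr1* codes for a zinc finger transcription factor and *Ier2* for a small nuclear protein. Most of these genes are immediate early genes, which fibroblasts switch on within minutes of serum or growth factor addition without new protein synthesis, through MAPK signalling to serum response factor and its ETS partners. *Jund* and *Fosl2* are known for steadier expression in growing cells.

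In these libraries the targeted gene was called higher in neither line, so they are named by their labels. The study itself reports overexpression in its *Hnrnpk* SAM MEFs by qRT-PCR and by Western blot. Whether those measurements used the same cultures as these libraries is not stated. *Hnrnpk* had 25058, 26098 and 26164 normalized counts with empty vector, 24102, 24045 and 23619 in SAM1 and 26608, 26859 and 26221 in SAM2. The log2 fold change of SAM1 against empty vector was -0.11 (adjusted p = 0.00252) and that of SAM2 was 0.044 (adjusted p = 0.159). Reads on the listed genes, recovered in 8 libraries, ranged from 41759636 to 49026626, and the 10 described genes had between 861 and 63164 reads each per library. Normalized counts are reads divided by the size factor of the library. Fold changes below are differences of log2(normalized count + 1) from limma, adjusted p-values cover all 15184 genes, and a gene is called higher or lower when its adjusted p is under 0.05. A large share of all genes was called in these cells, 74.3% in SAM1 against empty vector and 70.5% in SAM2.

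The labelled cell type was checked against markers. All 11 fibroblast markers on a fixed list were in the table, with summed normalized counts from 1146368 to 1248309.6 in empty vector, 892653 to 954099 in SAM1 and 1256013 to 1296928 in SAM2. Single markers moved within these sums, with 2 called higher and 9 lower in SAM1 and 3 higher and 5 lower in SAM2. Of all genes, 37.3% were called higher and 36.9% lower in SAM1, and 35.2% and 35.3% in SAM2. *Dcn* (decorin) had 11815 ± 292 normalized counts in empty vector, 2713 ± 29.2 in SAM1 and 2538 ± 65.6 in SAM2, and *Postn* (periostin) had 129504 ± 4685, 49955 ± 704 and 110853 ± 1207 (SD, n = 3). Other markers on the list rose. *Pdgfrb* was higher in both lines (6569 ± 379, 12577 ± 407 and 9513 ± 33.8, in the same order). *Vim* was higher in SAM1 alone (80507 ± 2644, 118053 ± 3400 and 76294 ± 600), and *Col1a1* in SAM2 alone (221562 ± 12033, 175398 ± 3867 and 290176 ± 7203). Of the leukocyte markers, 4 of 8 were listed (sums 1487 to 1524, 2513 to 2673 and 1756 to 1775 in the same order), with *Ptprc*, the pan-leukocyte marker, absent from the table. Endothelial markers (4 of 7 listed) summed to 301 to 357 in empty vector and 638 to 689 in SAM2, but to 4613 to 4988 in SAM1, where *Kdr* made up most of the sum. Epithelial markers (3 of 7 listed, without *Epcam*) summed to 388 to 429, 3733 to 3884 in SAM1 with *Cldn4* leading, and 243 to 275 in SAM2. Neural markers (3 of 6 listed) summed to 1138 to 1390.3, 1272 to 1289.9 and 1101 to 1161. *Kdr* had 211 ± 31.5 normalized counts in empty vector, 4693 ± 194 in SAM1 and 536 ± 27.3 in SAM2, and *Cldn4* had 366 ± 18.5, 3691 ± 75.6 and 211 ± 21.0. *Kdr* was thus higher and *Postn* lower in both lines, each by more in SAM1. *Cldn4* was higher in SAM1 and lower in SAM2, and *Dcn* was lower in both lines. The part of these genes in the values below was not tested.

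**Figure D1:**
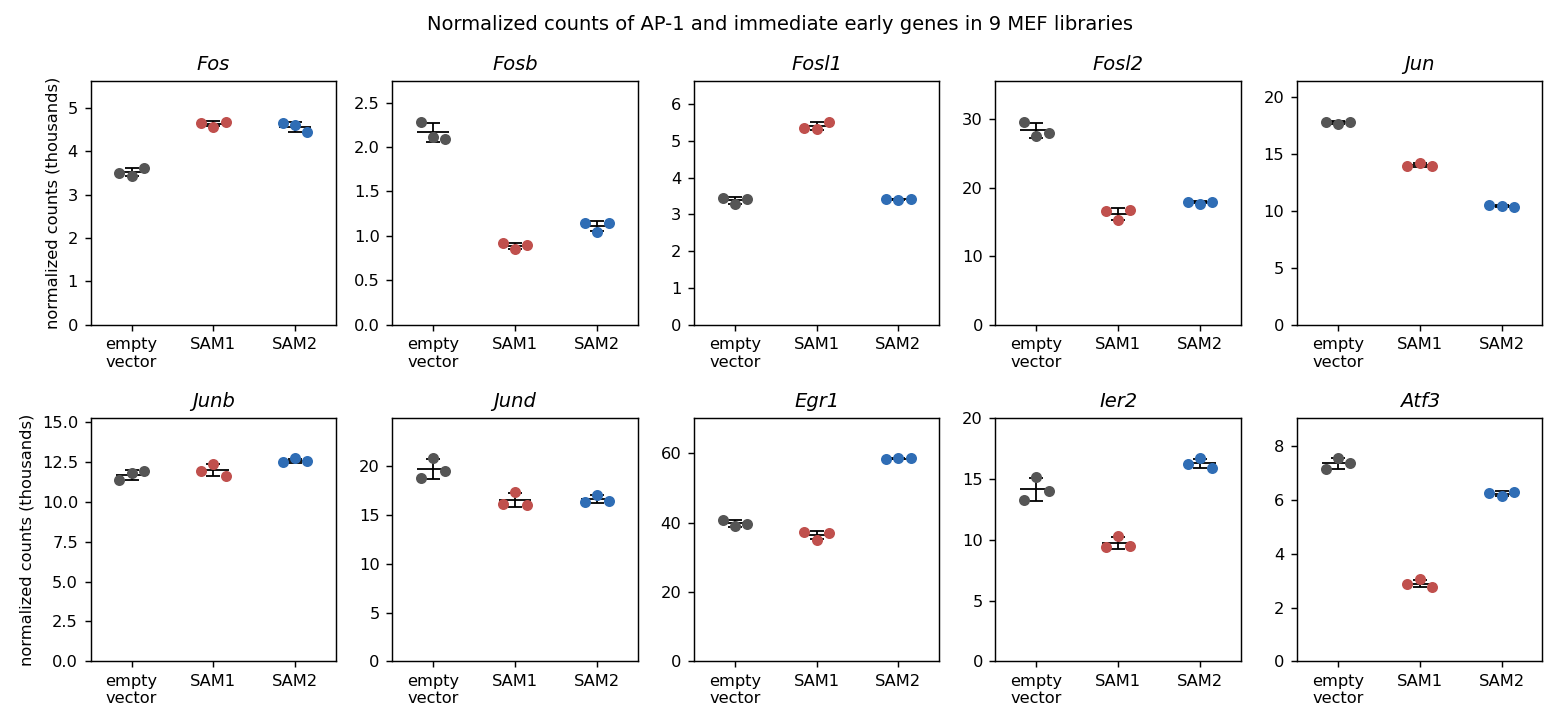
Normalized counts (in units of 1000, linear axes from 0) of the 10 genes in each of the 9 libraries, with 3 points a group and the mean ± SD (n = 3) as black bars. *Fos* is higher and *Fosb*, *Fosl2*, *Jun*, *Jund* and *Atf3* are lower in every SAM1 and SAM2 library than in every empty vector library. *Fosl1* stands out in SAM1 alone, and *Egr1* and *Ier2* are highest in SAM2.

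Within the Fos family, *Fos* itself was higher in both lines, *Fosb* and *Fosl2* were lower in both, and *Fosl1* was higher in SAM1. *Fos*, the prototype immediate early gene, lies at chr12:85520658-85524047 (GRCm39, plus strand) with 4 exons. Its normalized counts were 3502, 3439 and 3626 in empty vector, 4657, 4572 and 4685 in SAM1 and 4661, 4605 and 4439.8 in SAM2. Every library of the lines lay above every empty vector library, and the lines overlapped each other. The log2 fold change was 0.40 in SAM1 (SE 0.032, adjusted p = 8.72e-08) and 0.38 in SAM2 (SE 0.032, adjusted p = 1.94e-07). The difference between the lines was -0.022 (95% interval -0.09 to 0.047, adjusted p = 0.568). Under quantile normalization that difference became -0.093 with an adjusted p of 0.0202 from limma. Of 17 other listed genes within 0.5 Mb of *Fos*, 8 were called lower in SAM1 and 10 in SAM2 (36.9% and 35.3% of all genes). Their medians were -0.053 and -0.18, opposite in sign to *Fos*, beside -0.11 and -0.20 for the other listed genes of chromosome 12. The part of the neighbours in the *Fos* values was not tested.

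*Fosb*, which codes for a Fos protein with a strong activation domain, lies at chr7:19036621-19043976 on the minus strand. It had 2285, 2118 and 2091 normalized counts in empty vector, 916, 850.2 and 901 in SAM1 and 1143, 1048 and 1139 in SAM2. The 3 groups did not overlap, with empty vector highest and SAM1 lowest. This amounted to -1.28 on the log2 scale in SAM1 (SE 0.050, adjusted p = 6.14e-11) and -0.96 in SAM2 (SE 0.050, adjusted p = 1.59e-09). SAM2 lay 0.32 above SAM1 (adjusted p = 0.00011). Within 0.5 Mb of *Fosb* 36 other genes were listed, 22 of them called lower in SAM1 and 20 in SAM2 (36.9% and 35.3% of all genes). Their medians were -0.20 and -0.21, beside -0.27 and -0.24 for the other listed genes of chromosome 7. The part of the neighbours in the result was not tested.

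*Fosl2* codes for FRA-2, a Fos protein without the strong activation domain, at chr5:32292707-32315186 on the plus strand. Normalized counts were 29610.1, 27499.7 and 28025 in empty vector, 16558, 15207 and 16749 in SAM1 and 17865, 17672 and 17946 in SAM2. Again the 3 groups were separate, in the same order as for *Fosb*. The log2 fold changes were -0.81 (SE 0.038, adjusted p = 4.25e-10) in SAM1 and -0.67 (SE 0.038, adjusted p = 4.13e-09) in SAM2. SAM2 exceeded SAM1 by 0.14 (adjusted p = 0.00615), which quantile normalization brought to 0.087 with an adjusted p of 0.0510 from limma. Of 8 other listed genes within 0.5 Mb of *Fosl2*, 5 were called lower in SAM1 and 7 in SAM2 (36.9% and 35.3% of all genes). Their median log2 fold changes were -0.50 and -0.57, beside -0.16 and -0.14 for the other listed genes of chromosome 5. The neighbourhood thus moved in the direction of the gene, and its part in the result was not tested.

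*Fosl1* codes for FRA-1, which is often raised in motile and transformed cells, at chr19:5497575-5505974 on the plus strand. It had 3459, 3283 and 3414 normalized counts in empty vector, 5354, 5336 and 5525 in SAM1 and 3413, 3397 and 3431 in SAM2. SAM1 stood above all other libraries, while SAM2 lay within the range of empty vector. In SAM1 it rose by 0.68 on the log2 scale (SE 0.030, adjusted p = 2.60e-10). The SAM2 value was 0.013 (95% interval -0.053 to 0.078, adjusted p = 0.727), and -0.0094 without empty vector replicate 2. The difference between SAM2 and SAM1 was -0.66 (SE 0.030, adjusted p = 1.07e-09). *Ccdc85b* overlaps *Fosl1* on the opposite strand. The library kit was directional per the study's methods, but a strand setting for the counting is not given in the sources used here. *Ccdc85b* had 1669 ± 130 normalized counts in empty vector, 1525 ± 77.8 in SAM1 and 1005 ± 17.3 in SAM2 (SD, n = 3). Its own log2 fold changes were -0.13 in SAM1 and -0.73 in SAM2, and SAM2 minus SAM1 was -0.60 (adjusted p = 9.05e-07), near that of *Fosl1*. Its part in the *Fosl1* values was not tested. The 58 other listed genes within 0.5 Mb of *Fosl1* had medians of 0.12 in SAM1 and 0.055 in SAM2. Those of the other listed genes of chromosome 19 were -0.085 and -0.10.

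*Fosb* and *Fosl2* had the most alike profiles of any pair formed with either gene, with a root mean square difference of 0.197 between their centred log2 values over the 9 libraries. Their promoters are shown here because these genes moved together, beside those of *Fos*, *Junb* and *Atf3*. RefSeq windows from 250 bases before to 50 bases after the gene start (build GRCm38.p6) were used for 7 of the 10 genes, and for *Fosl1*, *Egr1* and *Ier2* none was used. The first sequences show the EGR motif GCGGGGGCG in capitals, searched on both strands, which 955 of 32851 windows (2.91%) held. Among the 7 windows it was found in *Fosb*, -50 bases from the gene start, and in *Fosl2*, at -79, in the direction of the gene in each. In both genes it overlaps a GGGCGG motif, present in 35.7% of windows.
*Fosb*, chr7:19310077-19310104, minus strand: gacgcaagcGCGGGGGCGggtcccggag
*Fosl2*, chr5:32136384-32136411, plus strand: cggctgcgcGCGGGGGCGgaagggcgcg
The next sequences show TGACG, the core letters shared by the cAMP response element and ATF sites and searched on both strands, in capitals (as CGTCA where it lies on the opposite strand). Of all windows 20.8% held it, and among the 7 it was found in *Fos* at 2 places, in *Fosb*, in *Junb* and in *Atf3*.
*Fos*, chr12:85473750-85473777, plus strand: gggcgtagagtTGACGacagagcgcccg
*Fos*, chr12:85473813-85473840, plus strand: gttccgcccagTGACGtaggaagtccat
*Fosb*, chr7:19310089-19310116, minus strand: ggagttgcgggTGACGcaagcgcggggg
*Junb*, chr8:84978838-84978865, minus strand: cttcctgacagTGACGcgagccgcctcc
*Atf3*, chr1:191183334-191183361, minus strand: tggaagctattaatagcattaCGTCAgc
All are written 5′ to 3′ on the strand of the gene. The full AP-1 site TGACTCA (5.20% of windows), the full site TGACGTCA (1.79%) and the CArG box of serum response factor (1.63%) had no match in the 7 windows. Bases beyond these short windows and the promoters of *Fosl1*, *Egr1* and *Ier2* were not searched, so a gene may hold such a site elsewhere. Genes with TGACG included *Fos*, which was higher in both lines, and *Fosb* and *Atf3*, which were lower in both. These matches describe letters in a short window and are not measured binding sites.

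Within the Jun family, *Jun* was lower in both lines, *Jund* was lower in both by a smaller amount that depended on the scaling in SAM1, and *Junb* was higher in SAM2. *Jun*, a single-exon gene at chr4:94937271-94940459 on the minus strand, codes for the strongest activator of the family. Its normalized counts were 17799, 17634 and 17821 in empty vector, 13972, 14191 and 13896 in SAM1 and 10483, 10392 and 10354 in SAM2. The groups were separate in descending order from empty vector to SAM1 to SAM2. It fell by 0.34 on the log2 scale in SAM1 (SE 0.024, adjusted p = 2.43e-08) and by 0.77 in SAM2 (SE 0.024, adjusted p = 1.09e-11). The difference between SAM2 and SAM1 was -0.43 (SE 0.024, adjusted p = 6.89e-09). The direction was thus shared by the lines, with a larger change in SAM2, the opposite order from *Fosb* and *Fosl2*. *Junos*, a long noncoding RNA that overlaps *Jun* on the opposite strand, had 93.1, 116 and 84.1 normalized counts in empty vector, 88.3, 84.9 and 79.1 in SAM1 and 65.3, 60.3 and 58.5 in SAM2. Its log2 fold changes were -0.20 (adjusted p = 0.174) and -0.65 (adjusted p = 0.000516). The library kit was directional, but reads of *Jun* and *Junos* cannot be told apart unless counting used strand, which is not stated. The 7 other listed genes within 0.5 Mb of *Jun* had medians of -0.17 in SAM1 and -0.12 in SAM2. Those of the other listed genes of chromosome 4 were -0.12 and -0.16.

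*Junb*, a single-exon gene at chr8:85701113-85705359 on the minus strand whose product often restrains JUN, had the smallest changes of the 10 against empty vector, *Fosl1* in SAM2 aside. It had 11322, 11769.8 and 11896 normalized counts in empty vector, 11919, 12342 and 11591 in SAM1 and 12455, 12707 and 12540.0 in SAM2. SAM1 overlapped empty vector, and SAM2 lay just above both. SAM1 differed from empty vector by 0.035 (95% interval -0.031 to 0.10, adjusted p = 0.313), which became 0.19 (adjusted p = 0.000125 from limma) under quantile normalization. In SAM2 it rose by 0.11 (SE 0.030, adjusted p = 0.0063). The lines differed by 0.073 (adjusted p = 0.0537), and this passed the threshold without empty vector replicate 1 (adjusted p = 0.0357 from limma), without empty vector replicate 2 (0.0478) or without SAM1 replicate 2 (0.0136). *Prdx2* overlaps *Junb* on the opposite strand, with log2 fold changes of 0.15 and 0.056 in SAM1 and SAM2.

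*Jund*, a single-exon gene at chr8:71151599-71153265 on the plus strand, codes for the Jun protein typical of unstimulated cells. It had 18835, 20802 and 19497 normalized counts in empty vector, 16164, 17331 and 16012 in SAM1 and 16341, 17058 and 16460.3 in SAM2. Both lines lay below empty vector and overlapped each other. It fell by 0.26 in SAM1 (SE 0.040, adjusted p = 6.45e-05) and by 0.25 in SAM2 (SE 0.040, adjusted p = 0.000105) on the log2 scale. Quantile normalization brought the SAM1 value to -0.089 (adjusted p = 0.0617 from limma) and left SAM2 at -0.13. The lines differed by 0.011 (95% interval -0.076 to 0.098, adjusted p = 0.83), a value that changed sign under quantile normalization (-0.045), without SAM1 replicate 1 (-0.0036), without SAM1 replicate 3 (-0.010) and without SAM2 replicate 2 (-0.0080). *Junb* and *Jund* were each other's nearest profile over the 9 libraries, with a root mean square difference of 0.157 between centred log2 values.

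**Figure D2:**
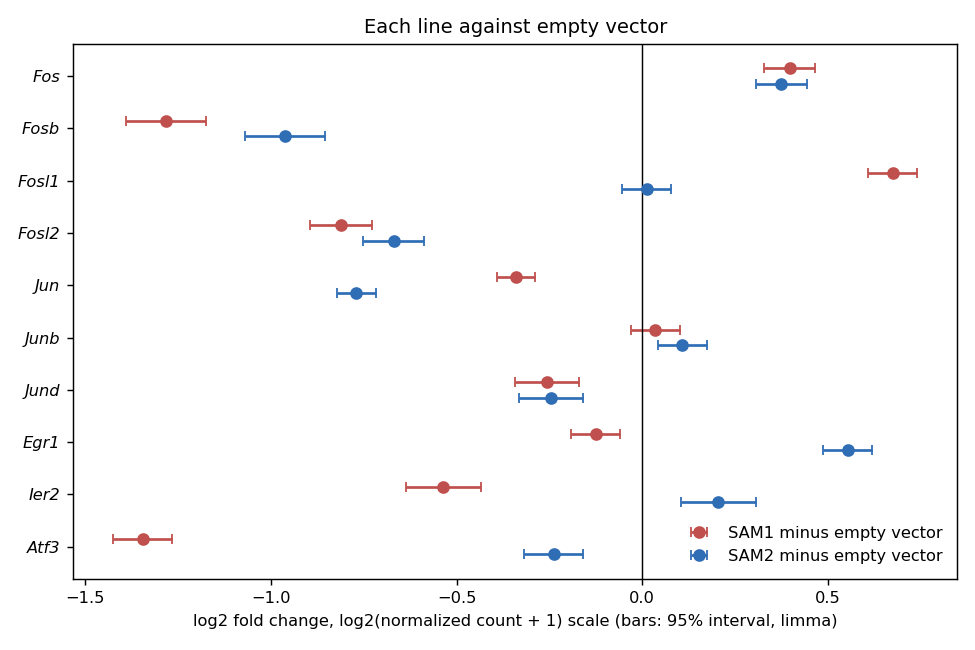
Log2 fold change of each gene in SAM1 (red) and SAM2 (blue) against empty vector on the log2(normalized count + 1) scale, with 95% intervals from limma (3 libraries a group). The lines agree in direction for *Fos*, *Fosb*, *Fosl2*, *Jun*, *Jund* and *Atf3*, and lie on opposite sides of 0 for *Ier2* and for *Egr1*, whose small SAM1 value turns positive under quantile normalization.

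Outside the Fos and Jun families, *Egr1*, *Ier2* and *Atf3* each differed between the lines by more than 0.6 on the log2 scale. *Egr1* codes for an early zinc finger factor and lies at chr18:34992876-34998049 on the plus strand. Its normalized counts were 40924, 38970.2 and 39660.1 in empty vector, 37326, 35144 and 37143 in SAM1 and 58329, 58567 and 58585 in SAM2. The SAM2 libraries stood far above all others, and the SAM1 libraries lay slightly under empty vector. In SAM2 *Egr1* rose by 0.55 (SE 0.030, adjusted p = 2.53e-09), and by 0.85 under quantile normalization. The SAM1 value was -0.13 (SE 0.030, adjusted p = 0.00206), and quantile normalization turned it to 0.069 (adjusted p = 0.0407 from limma), so its direction depends on the scaling. The difference between the lines was 0.68 (SE 0.030, adjusted p = 7.79e-10). Of 17 other listed genes within 0.5 Mb, 11 were called higher in SAM2 and 6 in SAM1 (35.2% and 37.3% of all genes). Their medians were 0.30 in SAM2 and -0.022 in SAM1, beside 0.12 and 0.072 for the other listed genes of chromosome 18. The part of the neighbours in the result was not tested.

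*Ier2*, a single-exon gene at chr8:85387960-85389483 on the minus strand, had 13275, 15151 and 13998 normalized counts in empty vector, 9423, 10316 and 9498 in SAM1 and 16219, 16693 and 15922 in SAM2. The groups were separate, with SAM1 lowest and SAM2 highest. It fell by 0.54 on the log2 scale in SAM1 (SE 0.047, adjusted p = 2.19e-07) and rose by 0.20 in SAM2 (SE 0.047, adjusted p = 0.00153). SAM2 exceeded SAM1 by 0.74 (SE 0.047, adjusted p = 2.26e-08). Across the 9 libraries, *Ier2* and *Egr1* were each other's nearest profile, with a root mean square difference of 0.200 between centred log2 values. *Ier2*, *Junb* and *Jund* all lie on chromosome 8, where the median over the 795 listed genes other than *Ier2* was 0.085 in SAM1 and 0.017 in SAM2. Within 0.5 Mb, the medians in SAM1 and SAM2 were 0.10 and -0.056 around *Ier2*. They were 0.14 and 0.12 around *Junb*, and 0.10 and 0.023 around *Jund*. For *Ier2* in both lines and for *Jund* these medians are opposite in sign to the gene, and their part in the values was not tested.

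*Atf3*, a stress-induced gene at chr1:190902493-190950241 on the minus strand, showed the largest difference between the lines of the 10 genes. Its normalized counts were 7143, 7554 and 7393 in empty vector, 2867, 3048 and 2775 in SAM1 and 6269, 6151 and 6307 in SAM2. All 3 groups were separate, and SAM1 lay far below the others. It fell by 1.35 in SAM1 (SE 0.037, adjusted p = 1.86e-12), to 0.393 of the empty vector level, and by 0.24 in SAM2 (SE 0.037, adjusted p = 6.11e-05). The lines differed by 1.11 (SE 0.037, adjusted p = 5.13e-11). Among 15 other listed genes within 0.5 Mb, 9 were called lower in SAM1 and 10 in SAM2 (36.9% and 35.3% of all genes). Their medians were -0.46 and -0.46, beside -0.22 and -0.18 for the other listed genes of chromosome 1. The neighbours thus had like medians in the lines, whereas *Atf3* did not, and their part in the result was not tested.

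Counted over the set, SAM1 had 2 genes called higher (*Fos* and *Fosl1*) and 7 lower, and SAM2 had 4 called higher (*Fos*, *Junb*, *Egr1* and *Ier2*) and 5 lower (*Fosb*, *Fosl2*, *Jun*, *Jund* and *Atf3*). Of all genes, 74.3% were called in SAM1, 37.3% higher and 36.9% lower, and 70.5% in SAM2, 35.2% higher and 35.3% lower. The libraries of each line did not overlap empty vector in 9 of the 10 for SAM1 and 9 for SAM2, against 74.4% and 73.5% of all genes. Counts of 9 of 10 are near this background, and none of them is by itself a result about these genes. Called in one direction in both lines were 6 of the 10 (52.3% of all genes), namely *Fos*, *Fosb*, *Fosl2*, *Jun*, *Jund* and *Atf3*, and in opposite directions 2 (5.83% of all genes), *Egr1* and *Ier2*, of which *Egr1* depends on the scaling. Quantile normalization changed the SAM1 split to 4 higher and 5 lower. The median log2 fold change of the 10 was -0.30 in SAM1 and -0.11 in SAM2, against 0.0093 and -0.0015 for all genes.

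Between the lines, 7 of the 10 were called, 5 higher in SAM2 (*Fosb*, *Fosl2*, *Egr1*, *Ier2* and *Atf3*) and 2 lower (*Fosl1* and *Jun*), against 60.3% of all genes (31.1% higher and 29.2% lower). Under quantile normalization the split was 4 higher and 3 lower. SAM1 and SAM2 libraries did not overlap in 8 of the 10 (68.2% of all genes). Over all genes the median absolute log2 difference between the lines was 0.23. *Atf3*, *Ier2*, *Egr1*, *Fosl1* and *Jun* all differed by more than 0.4, and *Fosl2*, though called, by less than the median gene.

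With the 6 libraries labelled Hnrnpk_SAM as a single group, 5 of the 10 were called, 1 higher and 4 lower, against 53.9% of all genes (26.8% higher and 27.0% lower), and 6 did not overlap empty vector (53.1% of all genes). This fit counts the 6 libraries as separate units although they come from the lines SAM1 and SAM2 only. Its p-values thus do not treat the line as the unit. Under quantile normalization 2 were called higher and 3 lower. *Fos* was higher by 0.39 (adjusted p = 1.13e-05). *Fosb* fell by 1.12 (adjusted p = 1.62e-05), *Fosl2* by 0.74 (adjusted p = 6.05e-06), *Jun* by 0.56 (adjusted p = 0.00426) and *Jund* by 0.25 (adjusted p = 0.00097). *Jund* did not pass under quantile normalization (-0.11, adjusted p = 0.0625 from limma), where *Junb* did (0.20, adjusted p = 0.00108). *Atf3* lay below empty vector in all 6 libraries but had an adjusted p of 0.0585. It passed without SAM2 replicate 1, 2 or 3 (adjusted p = 0.0348, 0.0375 and 0.0340 from limma), where SAM1, with the larger fall, weighs more. It did not pass with any empty vector or SAM1 library left out. Over all alternatives its pooled value ran from -0.91 to -0.67. *Fosl1*, *Egr1* and *Ier2* had pooled values of 0.34, 0.21 and -0.17 (adjusted p = 0.155, 0.383 and 0.543), which average lines that differ. Taking the mean of the lines from the fit with 3 groups, where the difference between lines does not count as error, all 10 passed.

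Levels of different genes were compared as normalized counts per kb of the canonical transcript (GENCODE vM39, from 1524 bases for *Ier2* to 6975 for *Fosl2*). In empty vector the order was *Jund*, *Ier2*, *Egr1*, *Junb*, *Jun*, *Fosl2*, *Atf3*, *Fosl1*, *Fos* and *Fosb*, from 11824 ± 601 down to 572 ± 27.9 per kb (SD, n = 3). Neighbours in this order did not overlap, except *Ier2* (9279 ± 621) and *Egr1* (8864 ± 220.3). In SAM1, *Jund* stayed at the top with 9899 ± 433, *Fosl1* (2899.9 ± 56.0) stood above *Fosl2* (2319 ± 120.5), and *Atf3* dropped to rank 9. Overlapping neighbours in SAM1 were *Junb* with *Ier2* and *Fosl2* with *Fos*. In SAM2, *Egr1* (13010.2 ± 31.9) and *Ier2* (10681 ± 255) stood above *Jund* (9970.0 ± 230.5), with no overlap between neighbours. *Fosb* was the lowest gene in every group.

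The makeup of Fos family transcripts differed between the groups. Summed over the 4 genes, the level per kb was 8123 ± 236 in empty vector, 7647 ± 198 in SAM1 and 6842 ± 49.9 in SAM2 (SD, n = 3). *Fosl2* made up 50.1 ± 0.644% of it in empty vector, 30.3 ± 0.838% in SAM1 and 37.4 ± 0.344% in SAM2. *Fosl1* made up 22.4 ± 0.187% in empty vector, 37.9 ± 0.591% in SAM1 and 26.8 ± 0.236% in SAM2. In empty vector *Fosl2* was the leading family member in every library, in SAM1 *Fosl1* was, and in SAM2 *Fosl2* led, followed by *Fos*. This order rests on annotated lengths (1864 bases for *Fosl1*, 6975 for *Fosl2*), and transcript lengths in these cells were not measured. Before division by length, *Fosl2* exceeded *Fosl1* in SAM1 too (16172 ± 840 against 5405 ± 104 normalized counts). *Fos* took 20.5 ± 0.666%, 28.7 ± 0.387% and 31.6 ± 0.664%, and *Fosb* 7.04 ± 0.212%, 3.07 ± 0.0658% and 4.29 ± 0.194%, in the same order of groups. These shares are descriptions and were given no test, since they combine the genes tested above.

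**Figure D3:**
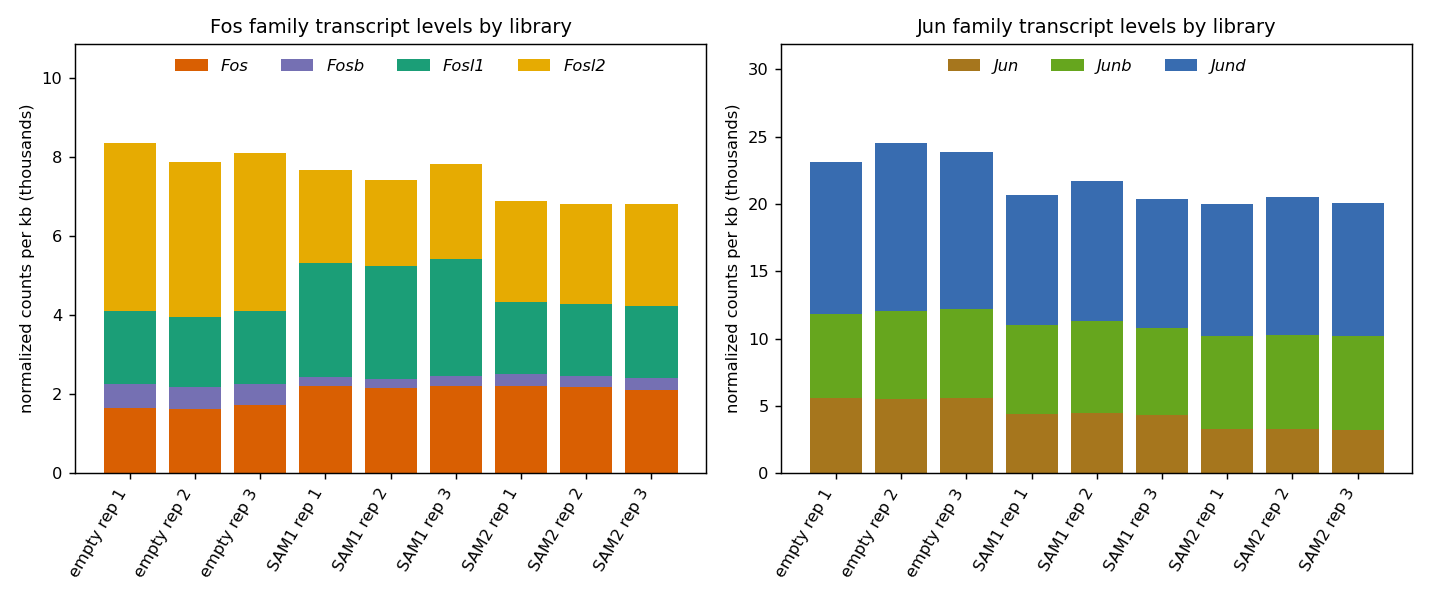
Normalized counts per kb of canonical transcript (in units of 1000), stacked by gene, for the Fos family (left) and the Jun family (right) in each of the 9 libraries. The yellow *Fosl2* part shrinks in SAM1 and SAM2, the green *Fosl1* part is widest in SAM1, and the brown *Jun* part shortens from empty vector to SAM1 to SAM2 while *Jund* remains the largest Jun family part.

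Jun family transcripts summed to 23838 ± 688 normalized counts per kb in empty vector, 20902 ± 681 in SAM1 and 20181 ± 292 in SAM2. *Jund* made up 49.6 ± 1.15%, 47.4 ± 0.556% and 49.4 ± 0.424% of the sum, the largest part in every library. The *Jun* part shrank from 23.4 ± 0.784% to 21.0 ± 0.448% and 16.2 ± 0.287%, and the *Junb* part grew from 27.0 ± 0.510% to 31.6 ± 0.238% and 34.4 ± 0.169%. In each group the Jun family sum exceeded the Fos family sum, with a ratio of Fos to Jun transcripts of 0.341 ± 0.0198 in empty vector, 0.366 ± 0.0211 in SAM1 and 0.339 ± 0.00673 in SAM2.

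Other immediate early genes were mixed in direction, like the 10 genes. Of 50 on the list 49 were in the table, with 17 called higher and 26 lower in SAM1 (median log2 fold change -0.084) and 16 higher and 29 lower in SAM2 (median -0.20). The shares of all genes, for this list and those below, were 37.3% higher and 36.9% lower in SAM1, and 35.2% and 35.3% in SAM2. *Nr4a2*, an orphan nuclear receptor, rose by 1.12 in SAM1 and 1.06 in SAM2, from 246 ± 12.9 to 537 ± 18.6 and 517 ± 53.4 normalized counts (SD, n = 3). *Pim1*, a kinase, rose by 0.70 and 0.55, and the clock gene *Per1* by 0.55 and 0.49. Those that fell included *Klf6*, a zinc finger factor that had 44308 ± 443 normalized counts in empty vector, 24256 ± 412 in SAM1 and 25254 ± 220.2 in SAM2. The kinase gene *Sgk1* fell by 0.83 and 0.77, and the stress gene *Gadd45b* by 0.85 and 0.92. Between the lines the widest gap of this list was in *Dusp2*, a phosphatase of nuclear MAPKs, with 8.18, 26.3 and 23.4 normalized counts in empty vector, 359.7, 367 and 362 in SAM1 and 82.1, 69.5 and 62.2 in SAM2 (SAM2 minus SAM1 -2.34, adjusted p = 2.20e-05).

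Among 18 other bZIP genes whose products pair with or resemble AP-1 proteins, 15 were in the table, with 5 called higher and 6 lower in SAM1 (median -0.047) and 9 higher and 6 lower in SAM2 (median 0.21). Called in either direction were 74.3% of all genes in SAM1 and 70.5% in SAM2. *Maf*, a large Maf family gene, fell by 1.06 in SAM1 and 1.45 in SAM2. *Mafa* was scarce, at 6.86 ± 1.49, 16.8 ± 2.75 and 23.9 ± 5.57 normalized counts, with log2 fold changes of 1.19 and 1.65, and its SAM1 value did not pass under quantile normalization (adjusted p = 0.107 from limma). The antioxidant factor gene *Nfe2l2* rose by 0.35 and 0.29, while its relative *Nfe2l1* fell by 0.95 and 0.40 and the small Maf gene *Mafg* by 0.20 and 0.21. *Jdp2* codes for a repressive partner of Jun proteins related to ATF3. It fell by 1.07 in SAM1 and 0.23 in SAM2, from 3657 ± 119 to 1739.9 ± 12.7 and 3125 ± 99.6 normalized counts, and had the widest gap between the lines on this list (0.84, adjusted p = 4.51e-10).

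Receptors, MAPK cascade genes and the factors that carry their signal to *Fos* and *Jun* were mixed in direction. All 37 were in the table, with 12 called higher and 15 lower in SAM1 and 13 higher and 19 lower in SAM2 (medians -0.053 and -0.11). The shares of all genes called were 74.3% in SAM1 and 70.5% in SAM2. *Map2k1*, which codes for the kinase MEK1, fell by 0.37 in SAM1 and 0.44 in SAM2. *Elk4*, an ETS partner of serum response factor, fell by 0.39 and 0.41. Rises were seen in *Map2k4*, an activator of JNK (0.50 and 0.52), in *Mapk7*, coding for ERK5 (0.48 and 0.39), and in *Mrtfa*, another cofactor of serum response factor (0.44 and 0.60). *Map2k6*, an activator of p38, rose in SAM1 (0.83) and fell in SAM2 (-0.44), the widest gap between the lines on this list (-1.26, adjusted p = 2.22e-08).

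Feedback inhibitors of MAPK signalling were all called in SAM1, 12 of 18 higher and 6 lower (median 0.24), and in SAM2 8 were called higher and 8 lower (median 0.0015). Beside these stand 74.3% of all genes called in SAM1 (37.3% higher and 36.9% lower) and 70.5% in SAM2. *Errfi1*, an inhibitor of the EGF receptor, fell by 1.17 and 1.15, from 21411 ± 567 to 9485 ± 218 and 9625 ± 112 normalized counts. *Dusp10*, a phosphatase of JNK and p38, fell by 0.51 and 0.82. *Dusp3* fell by 0.15 and 0.23, and the SAM1 value did not pass under quantile normalization (adjusted p = 0.311 from limma). *Spred1* and *Spred3*, inhibitors of Ras signalling, rose by 0.42 and 0.83 in SAM1 and by 0.37 and 0.58 in SAM2, and *Dusp16* rose by 0.33 and 0.43. *Dusp4*, an ERK-induced phosphatase, rose in SAM1 (0.65) and fell in SAM2 (-0.38), like *Map2k6*. Its normalized counts were 9461 ± 357 in empty vector, 14836 ± 425 in SAM1 and 7278 ± 203 in SAM2.

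Textbook AP-1 target genes were also split, with 10 of 24 called higher and 14 lower in SAM1 (median -0.23) and 6 higher and 13 lower in SAM2 (median -0.11), or 8 higher and 11 lower in SAM2 under quantile normalization. Again 74.3% of all genes were called in SAM1 and 70.5% in SAM2. *Lif*, a cytokine gene, fell by 1.02 in SAM1 and 1.41 in SAM2, and the urokinase receptor gene *Plaur* by 0.41 and 0.38. The metallothionein genes *Mt2* and *Mt1* rose by 1.12 and 0.73 in SAM1 and by 0.59 and 0.23 in SAM2, and *Tgfb1* by 0.14 and 0.21. *Mmp3*, a matrix metalloproteinase gene, went opposite ways (2.71 in SAM1 and -2.17 in SAM2). It had 50.1, 67.2 and 67.8 normalized counts in empty vector, 389, 425 and 403 in SAM1 and 7.91, 15.8 and 16.7 in SAM2. The groups were separate, and SAM2 minus SAM1 was -4.88 (adjusted p = 1.01e-09).

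In the short list of EGR and ATF3 partners and targets (12 genes, all in the table), no gene was called higher in SAM1 and 11 were called lower, while SAM2 had 5 higher and 6 lower, beside 37.3% higher and 36.9% lower of all genes in SAM1 and 35.2% and 35.3% in SAM2. The medians were -0.38 in SAM1 and -0.063 in SAM2. Between the lines, 8 of the 12 were higher in SAM2 and 2 lower (of all genes 31.1% and 29.2%), with a median of 0.73 against -0.0075 for all genes. The list includes genes of the stress response, among them *Asns*, *Chac1* and *Trib3*. *Atf4*, from the bZIP list above, moved by -0.14 in SAM1 and 0.36 in SAM2, with 0.50 between the lines. The part of *Atf3*, *Egr1* or *Atf4* in these values was not tested. *Gadd45g*, a stress gene, fell by 1.84 and 1.46. *Nab1*, a corepressor of EGR proteins, fell by 0.58 and 0.67. *Trib3*, a pseudokinase gene of the stress response, fell in SAM1 (-0.92) and rose in SAM2 (0.39), from 4059 ± 269 normalized counts in empty vector to 2142 ± 70.2 and 5294 ± 40.4. Each line's comparison uses the same 3 empty vector libraries, so their values are not independent. Over the 155 genes of the 6 lists, 134 were called in SAM1 (86.5%) and 138 in SAM2 (89%), beside 74.3% and 70.5% of all genes, and 91 with the lines pooled (58.7%, beside 53.9%). The median over these 155 was -0.084 in SAM1 and -0.11 in SAM2.

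**Figure D4:**
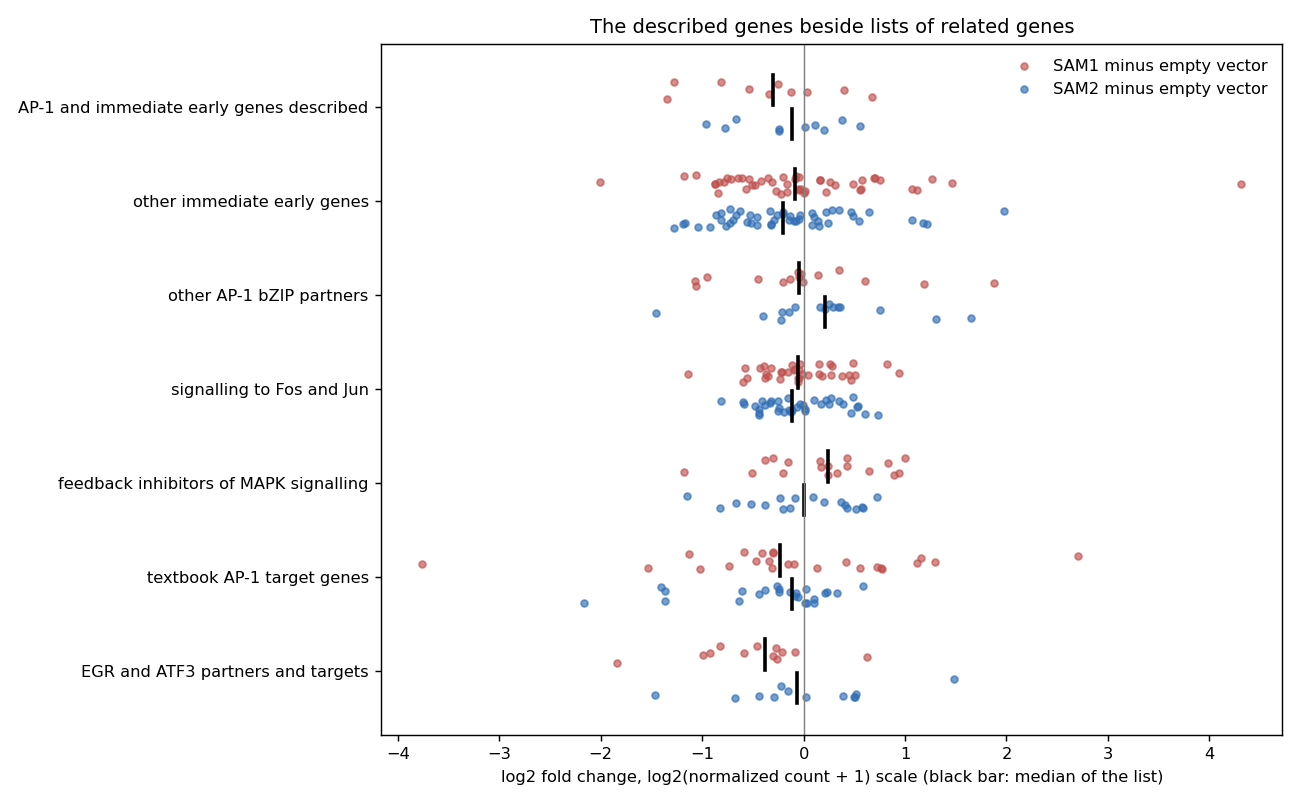
Log2 fold change of every listed gene in SAM1 (red) and SAM2 (blue) against empty vector, on the log2(normalized count + 1) scale, for the 10 described genes and 6 lists of related genes. Black bars mark the median of each list, all between -0.38 and 0.24, while single genes spread to both sides of 0 in every list.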

How the data were processed

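RNA-Seq of MEFs was measured in 3 libraries with empty vector and in 3 a line for SAM1 and SAM2, grouped by title. The authors checked reads with FastQC (0.11.0), used TopHat2 and Bowtie2 for alignment to GRCm39 and HTSeq for counting, and scaled counts with DESeq2 size factors. Deposited values are thus a signal, normalized counts of genes above 10 in at least 30% of libraries. Log2(value + 1) was fitted with limma (3.58.1, eBayes with trend, R 4.3.3), two-sided, with Benjamini-Hochberg adjustment over 15184 genes and a threshold of 0.05. One fit had the 6 Hnrnpk_SAM libraries as a group, another had 3 groups, which shared an estimate of the spread of each gene. The spread was not equal in the groups. The SD in empty vector, SAM1 and SAM2 was 991, 1211 and 143 for *Egr1*, and 95.2, 58.6 and 115 for *Fos*. Reads recovered from the steps of 8 libraries (100% of values whole within 0.01 read) were tested with edgeR (4.0.16) and DESeq2 (1.42.0) as alternatives. SAM2 replicate 1, whose step is close to 1, was left out of these. Scripts were tested on simulated data. Alternatives were other pseudocounts, a stricter filter, quantile normalization, the replicate block, the mean of the lines and each library left out. The genes, lists and tests were chosen with earlier results of these data known. From each list were named up to 3 genes called higher and 3 called lower with the smallest adjusted p in the pooled fit and no overlap of groups, and the gene with the widest gap between lines, of which some are not reported here. *Junos*, *Prdx2*, *Ccdc85b*, *Kdr*, *Cldn4*, *Dcn*, *Postn*, *Pdgfrb*, *Vim*, *Col1a1* and *Atf4* were named after their values were seen. Positions and lengths come from GENCODE vM39 (GRCm39), and promoter windows from RefSeq (GRCm38.p6).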

Additional observations from a re-analysis of the deposited data

Results flagged for a closer look

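In 7 of the 10 genes the difference between line SAM2 and line SAM1 itself passed an adjusted p of 0.05 from limma, against 60.3% of all genes. The log2 differences, SAM2 minus SAM1, were 1.11 for *Atf3*, 0.74 for *Ier2*, 0.68 for *Egr1*, 0.32 for *Fosb* and 0.14 for *Fosl2*, and -0.66 for *Fosl1* and -0.43 for *Jun*. In each of the 7 the 3 SAM2 libraries did not overlap the 3 SAM1 libraries.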

How the results depend on the processing

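Over the 10 genes and 4 comparisons, calls and directions held with pseudocounts of 0.5 and 10, with genes above 10 in all libraries, and with edgeR, which called 8062, 11150, 9988 and 8415 of 15184 genes in the pooled, SAM1, SAM2 and line comparisons. DESeq2 added *Fosl1* and *Atf3* to the pooled comparison (0.45 and -0.80, adjusted p = 0.0340 and 0.0155). The count of genes called with the lines pooled moved from 5 to 10 when the mean of the lines was taken from the fit with 3 groups. Quantile normalization turned *Egr1* in SAM1 to 0.069 and the *Jund* difference between the lines to -0.045. It moved the values of the 10 by 0.0059 to 0.21 in SAM1 and by -0.027 to 0.29 in SAM2, while the median shift over all genes was -0.033 and -0.063. Leaving out a library gave 5 to 6 genes called with the lines pooled, 9 in each line against empty vector and 7 to 8 between the lines. It gave *Fosl1* in SAM2 values from -0.0094 (without empty vector replicate 2) to 0.028, and the *Jund* line difference values from -0.010 to 0.047, with -0.0036, -0.010 and -0.0080 without SAM1 replicate 1, SAM1 replicate 3 and SAM2 replicate 2. On the lists, it left 76 to 92 of 155 genes called pooled (91 with all libraries), 130 to 134 in SAM1 (134), 130 to 141 in SAM2 (138) and 108 to 121 between the lines (118). Tgfb1 and Mt1 lost the pooled call without empty vector replicate 2 (adjusted p = 0.0508 and 0.0503 from limma), and Mt1 also without replicates 1 and 3 (0.0784 and 0.0654).

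Libraries with the same replicate number deviated together weakly (mean r 0.0531 over 9 pairs, 3 of them above 0.1). The mean was -0.0265 over 18 pairs with different numbers, none above 0.1. Deviations were taken from group means and cancel within a group, so these means are tied to each other. Their contrast is thus not an independent comparison. Of 9 libraries, 6 correlated best with their own number, a weak hint from the data. The numbers were not taken as pairs, since not every pair passed 0.1 and the labels give them no shared source. With the replicate number as a block, 7343 genes were called pooled in place of 8179, and of the 10 genes 5, 9, 9 and 8 were called in the 4 comparisons, the added one being *Junb* between the lines (0.073, adjusted p = 0.0248 from limma). The replicate numbered 2 was highest in all 3 groups for *Ier2* and *Jund* and that numbered 1 for *Fosb*, so that 1 number was highest throughout in 3 of the 10 genes and in 18.8% of all genes. Each of the 10 had at least 861 reads in each of the 8 libraries with recovered reads, and the effect of depth was not tested.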
